A study of Homo sapiens with 12 samples.

Results

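The genes described here are 9 targets of NRF2 (NQO1, HMOX1, GCLM, GCLC, TXNRD1, SRXN1, SLC7A11, AKR1C1 and AKR1B10), found by their gene symbol among the 46350 named genes of the count tables. Each symbol matched 1 gene, and all 9 genes passed the filter on low counts. The rule that names them is knowledge of the pathway and uses no measured value, but the list was drawn up with earlier results of these data known. They were measured by RNA sequencing in 12 libraries of human ovarian cancer cell lines, with 3 libraries in each of 4 groups. These groups were untreated SKOV3 cells, described as sensitive to cisplatin, SKOV3 cells given paeonol (PAE, a phenol), untreated SKOV3/DDP cells, described as resistant to cisplatin, and SKOV3/DDP cells given PAE. The labels name no dose, time, vehicle or batch, and it is not stated whether both lines received the same dose. The column headers of the treated groups carry a different number for each line, whose meaning is not given, so that a difference of the PAE effect between the lines cannot be told apart from a difference in dose. Each type of cell was represented by 1 line, and the replicates may be cultures or technical repeats, so a p-value measures the spread between these samples.

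NRF2, encoded by NFE2L2, is a transcription factor that KEAP1 holds in the cytoplasm and passes to a CUL3 ubiquitin ligase for degradation. Electrophiles and oxidants modify cysteines of KEAP1, NRF2 then accumulates, pairs with a small MAF protein (MAFF, MAFG or MAFK) and binds antioxidant response elements, at which BACH1 represses some of the same genes. The targets make glutathione, keep thioredoxin and peroxiredoxins reduced, break down heme and reduce quinones and carbonyls, and high NRF2 activity is known from many chemoresistant tumours. Because the activity of NRF2 is set largely through the stability of the protein, the messenger level of NFE2L2 is no measure of it.

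The antioxidant response element was looked for as the letters TGACNNNGC on both strands of RefSeq promoter windows of GRCh38.p14, which run from 250 bases before a transcript start to 50 after it. Of the members, 6 had a window (7 windows in all, since TXNRD1 had 2), and HMOX1, SLC7A11 and AKR1B10 had no entry in the table. Matches lay in 3 of the 7 windows, against 13.3% of all 35116 windows, and the shorter letters TGACTCA, which can lie within an element of this kind, were in 0 of the 7 and in 4.95% of all windows. The 4 matches are shown because they are the letters through which NRF2 is known to bind. Each is printed with 10 bases on either side and the match in capitals.

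GCLM (chr1:93909446-93909474, plus strand, gene on the minus strand): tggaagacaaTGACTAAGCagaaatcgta
TXNRD1, first start (chr12:104215670-104215698, plus strand, gene on the plus strand): acacgggctaTGACTTCGCtgttgtcacc
TXNRD1, first start (chr12:104215761-104215789, minus strand): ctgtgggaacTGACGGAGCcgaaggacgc
TXNRD1, second start (chr12:104286920-104286948, minus strand): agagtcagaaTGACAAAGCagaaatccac

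The match of GCLM was centred 30 bases before its transcript start. Those of TXNRD1 were centred 95 and 4 bases before the first start and 98 bases before the second. A match describes the letters alone and does not show that the site is bound.

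Facts of the libraries bear on every value below. Totals ranged from 14610008 to 18263479 counts. Between 17951 and 18240 genes were detected in untreated SKOV3 and between 21469 and 23194 in the other libraries, and mitochondrial genes took 1.29% to 2.44% of counts in SKOV3 and 3.93% to 11.2% in SKOV3/DDP. The part of these in the results was not tested. Levels are given as CPM, a count scaled to its library's total after TMM, a factor per library that evens out differences in composition. In the 3 untreated SKOV3 libraries genes rich in G and C read high, with Spearman correlations of 0.770 to 0.798 between GC content and a gene's deviation from its mean over the 12 libraries, against −0.688 to −0.468 in the other 9 (10490 genes, which are not independent, and a rise in some libraries forces a fall in the others). Since all untreated SKOV3 libraries carry this trend, it cannot be told apart from the group, and the comparisons of the members that use them are also given after each library's smooth dependence on GC content and length was taken out (called below the trend removed). The 2nd untreated SKOV3/DDP library stood apart from its group in the members, as described next. Markers of the ovarian epithelium were weak, with PAX8 at 23.3 to 34.0 CPM in untreated SKOV3 and at most 5.58 CPM in untreated SKOV3/DDP, WT1 at or near 0 and EMX2 at or near 0. The intestinal markers CDX1, CDX2, VIL1, LGALS4 and CDH17 summed to between 531 and 576 CPM in untreated SKOV3/DDP, to between 163 and 249 CPM in SKOV3/DDP with PAE, and to at most 0.887 CPM in either group of SKOV3. The part of these markers in the differences between the lines was not tested. In bulk samples, fewer cells of a type and less RNA per cell cannot be told apart.

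The members did not behave alike in the 3 untreated SKOV3/DDP libraries. Replicate 2 was the highest of the 3 for 9 of 9 members, and it was at least 2-fold above both of its companions for 8 of them, all but NQO1. In the other 11 libraries between 0 and 2 of the members stood that far above both companions, and between 0 and 3 that far below. The 3 were in replicate 3 of SKOV3 with PAE, where 5.18% of all genes tested lay that far below. Over all 17133 genes tested, 1197 (6.99%) stood that far above in untreated SKOV3/DDP replicate 2. HMOX1, the heme oxygenase that opens heme to biliverdin, iron and carbon monoxide, was at 15.0 and 13.3 CPM in replicates 1 and 3 and at 1484 CPM in replicate 2, a ratio of 105 to the mean of the other two. SLC7A11, the cystine importer of system xc-, was at 57.0 and 70.9 CPM against 902 CPM, a ratio of 14.1. SRXN1, the sulfiredoxin that repairs overoxidized peroxiredoxins, stood at a ratio of 7.02. GCLC and GCLM, the catalytic and modifier subunits of the ligase that limits glutathione synthesis, had ratios of 6.53 and 4.68. AKR1C1, a reductase of ketosteroids and carbonyls, had a ratio of 3.32, AKR1B10, a reductase of aldehydes and retinal, of 2.90, and TXNRD1, the cytosolic thioredoxin reductase, of 2.86. NQO1, the 2-electron quinone reductase, had the smallest ratio, 1.73.

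Other genes of the pathway parted from their companions in the same library, and these were picked after their values were seen. NFE2L2 stood at 320 CPM against 113 and 110 CPM. OSGIN1, an oxidative stress-induced growth inhibitor, had a ratio of 14.2, CHAC1, a glutathione-degrading enzyme of the amino acid response, of 11.1, and SLC3A2, the heavy chain that partners SLC7A11, of 5.24. TXNIP, the inhibitor of thioredoxin, was lower, at a ratio of 0.0951, and SQSTM1, the autophagy receptor that competes for KEAP1, at 0.250. KEAP1 itself had a ratio of 1.23. Of the tested genes of the 6 further lists of the pathway, the library was at least 2-fold above both companions for 3 of 12 regulators, 2 of 10 glutathione genes, 0 of 11 thioredoxin genes, 2 of 6 NADPH genes, 3 of 8 heme and iron genes and 6 of 16 other targets. In 5 of the members (HMOX1, GCLC, SRXN1, SLC7A11 and NQO1) this untreated library lay above all 3 PAE-treated SKOV3/DDP libraries, in GCLM, TXNRD1 and AKR1C1 within their range, and in AKR1B10 below it. The labels give no reason for the difference, its cause was not tested, and the comparisons of the members in SKOV3/DDP are given with and without it.

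**Figure D1:**
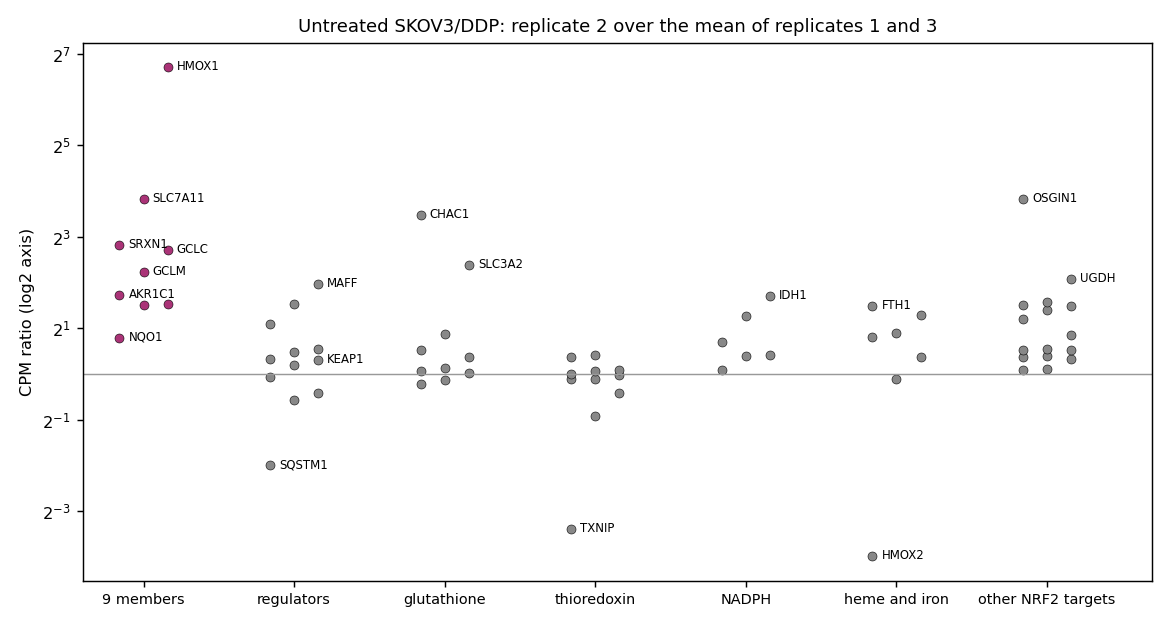
CPM of the 2nd untreated SKOV3/DDP library divided by the mean of replicates 1 and 3 (log2 axis), 1 point per tested gene, for the 9 members and the 6 lists of pathway genes. The members reach from 1.73 for NQO1 to 105 for HMOX1, while TXNIP and SQSTM1 lie below 1.

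In SKOV3, 6 of the 9 members rose with PAE: GCLM, GCLC, TXNRD1, SLC7A11, AKR1C1 and AKR1B10. With edgeR's quasi-likelihood test and Benjamini-Hochberg adjustment over all genes, 42.6% of the genes tested were called higher in this comparison, 32.7% lower and 75.3% in either direction. The median log2 fold change was 3.08 over the members and 0.48 over all genes. By library size alone it was 3.95 over the members and 1.36 over all genes. The GC trend of the untreated libraries runs the same way. Genes below 45% GC had a median log2 fold change of 2.98 (4547 genes), those from 45% to 55% of 0.80 (5704 genes) and those above of −1.98 (5431 genes), and 5 of the 6 members that rose are below 45%, TXNRD1 being the exception. With the trend removed, where 26.1% of genes were called higher and 21.8% lower, TXNRD1 and HMOX1 were the members called higher and NQO1 was called lower. The number of calls with the trend removed depended on untreated SKOV3/DDP replicate 2, a library outside this comparison that adds to the spread estimated over all groups. Without that library as well, a setting added after the data were seen, 5 members were called higher (HMOX1, TXNRD1, SRXN1, GCLC and SLC7A11) and NQO1 lower, beside 27.2% and 22% of all genes. TXNRD1 was called higher in all 3 of these fits, whereas GCLM, AKR1C1 and AKR1B10 were called in the fit with the trend left in alone.

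**Figure D2:**
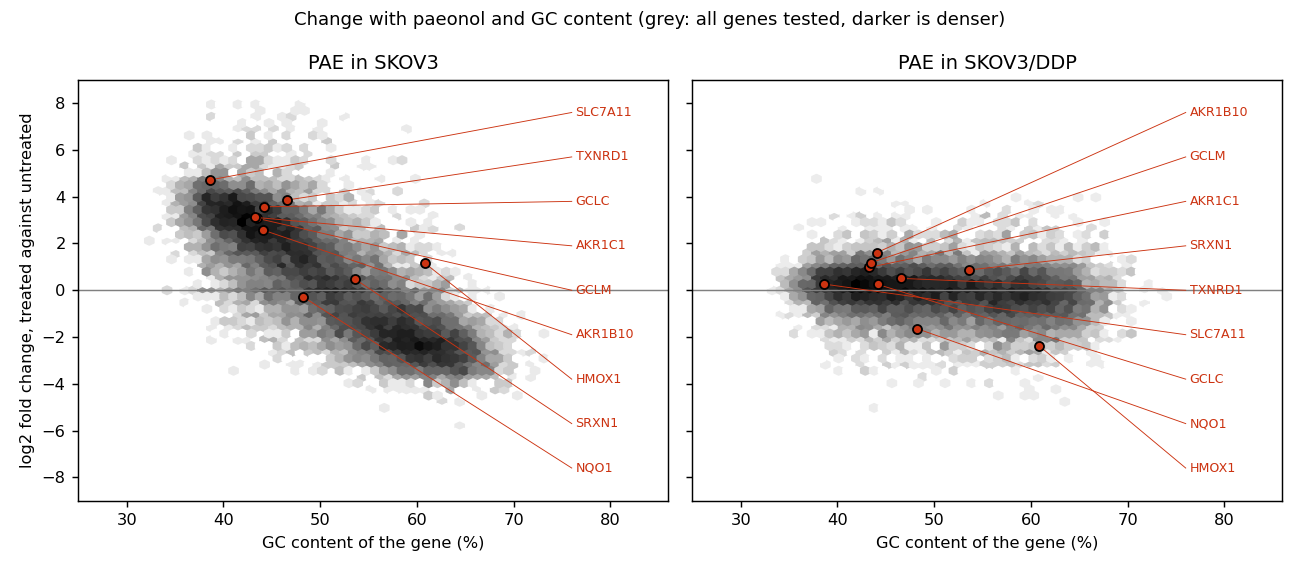
Log2 fold change with PAE (treated against untreated) against the GC content of the gene in percent, for SKOV3 on the left and SKOV3/DDP on the right. Grey cells show all genes tested that have a GC value, darker cells hold more genes, and red points are the 9 members. In SKOV3 the members below 45% GC lie within the falling cloud of all genes. In SKOV3/DDP the cloud falls much less, with medians of 0.17 below 45% GC, 0.00 from 45% to 55% and −0.21 above.

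Of the thioredoxin arm, TXNRD1 (chr12:104215779-104350307, GC content 46.6%) was at 91.8, 31.9 and 62.3 CPM in the untreated SKOV3 libraries and at 1103, 847 and 745 CPM with PAE. The groups were far apart, with a log2 fold change of 3.86 ± 0.47 (SE, n = 3 per group, adjusted p = 2.17e-06 by edgeR), and of 2.14 ± 0.37 (adjusted p = 0.000364) with the trend removed. TXNRD1 overlaps the ribosomal pseudogene RPL18AP3 on the same strand, which held 29059 counts against its 173611, and the files do not say how shared reads were assigned. SRXN1 (chr20:646615-653200) was at 74.0, 66.0 and 76.7 CPM untreated and at 154, 81.6 and 68.6 CPM with PAE, so that the groups overlapped (log2 fold change 0.49 ± 0.57, adjusted p = 0.452 by edgeR). It did not pass with the trend removed either (adjusted p = 0.08 by edgeR), and was called, at 1.31 (adjusted p = 0.00109 by edgeR), when untreated SKOV3/DDP replicate 2 was left out too.

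Of the glutathione arm, SLC7A11 (chr4:138164097-138242349, GC content 38.6%) had the highest fold change of the members with the trend left in. With the trend removed it lay near the members' median of 1.23, below HMOX1, TXNRD1 and GCLC among others. SLC7A11 was at 12.7, 4.86 and 6.27 CPM untreated and at 281, 141 and 203 CPM with PAE (log2 fold change 4.71 ± 0.88, adjusted p = 0.000172 by edgeR). GCLC (chr6:53497341-53545101) was at 8.07, 3.41 and 3.14 CPM against 85.6, 34.4 and 53.2 CPM (3.57 ± 0.67, adjusted p = 0.000183 by edgeR). GCLM (chr1:93885199-93910370) was at 19.8, 14.2 and 21.6 CPM against 234, 103 and 134 CPM (3.08 ± 0.53, adjusted p = 7.48e-05 by edgeR). For each of these genes every treated library lay above every untreated library. With the GC and length trend removed from all 12 libraries none of the 3 was past the threshold, where SLC7A11 had 1.23 ± 0.78 (adjusted p = 0.209), GCLC 1.31 ± 0.61 (adjusted p = 0.0892) and GCLM 0.36 ± 0.47 (adjusted p = 0.555) by edgeR. Without untreated SKOV3/DDP replicate 2 these values hardly moved, but their errors were smaller, and SLC7A11, at 1.23 ± 0.24 (adjusted p = 0.000792 by edgeR), and GCLC, at 1.31 ± 0.29 (adjusted p = 0.00231 by edgeR), were called while GCLM, at 0.37 (adjusted p = 0.191 by edgeR), was not.

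HMOX1 (chr22:35381096-35394207) has the highest GC content of the members, 60.8%. Its untreated SKOV3 libraries were close together, at 251, 223 and 285 CPM, while those with PAE were at 1327, 289 and 64.8 CPM. Replicate 1 alone was high and replicate 3 lay below every untreated library, and the log2 fold change of 1.15 ± 1.25 was within the spread (adjusted p = 0.416 by edgeR). Without treated replicate 1 it was −0.51 (adjusted p = 0.755 by edgeR), and with the trend removed from all libraries 4.05 ± 1.44 (adjusted p = 0.0322 by edgeR). Treated replicate 1 was the highest of its group for 9 of 9 members, and the share of all genes highest in it is not given here. It exceeded both companions at least 2-fold for 1 of the members, HMOX1, beside 4.11% of all genes tested.

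NQO1 (chr16:69709401-69726560) was the most abundant member in untreated SKOV3, also per length, at 1019 CPM per kilobase against 163 for HMOX1 and 28.6 for SRXN1. It was at 2142, 2875 and 2690 CPM untreated and at 2477, 1659 and 2182 CPM with PAE, and the groups overlapped. Its log2 fold change was −0.29 ± 0.25 (adjusted p = 0.304 by edgeR), and the direction turned with the scaling, to 0.59 (adjusted p = 0.0327) by library size alone, while DESeq2 gave −0.55 (adjusted p = 0.0472). The value was −1.17 ± 0.23 with the trend removed (adjusted p = 0.00111 by edgeR).

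Of the aldo-keto reductases, AKR1C1 (chr10:4963415-4983283) was at 33.3, 33.0 and 35.5 CPM untreated and at 400, 332 and 151 CPM with PAE (log2 fold change 3.12 ± 0.47, adjusted p = 2.26e-05 by edgeR). Its value was 0.35 ± 0.48 with the trend removed (adjusted p = 0.566 by edgeR). Its near-identical copy AKR1C2 was at 3.10, 3.49 and 3.31 CPM untreated and at 168, 109 and 66.9 CPM with PAE, with a log2 fold change of 5.12 ± 0.56 (adjusted p = 7.25e-07 by edgeR), and of 2.99 (adjusted p = 0.00053 by edgeR) with the trend removed. Counting could split reads between the copies, and the counts of AKR1C1 to AKR1C4 summed gave 3.36 ± 0.42 (adjusted p = 3.27e-06 by edgeR) with the trend left in. AKR1B10 (chr7:134527567-134541412) was hardly detected in SKOV3, with 2 counts in the 3 untreated libraries and 21 with PAE, a ratio of 6.54 with a 95% interval of 1.60 to 57.5 that covers counting error only. Its call (2.58 ± 1.02, adjusted p = 0.0318 by edgeR) was lost when any single untreated replicate or treated replicate 1 or 2 was left out, with adjusted p between 0.0509 and 0.116, and AKR1B10 was at 0.72 (adjusted p = 0.64 by edgeR) with the trend removed.

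**Figure D3:**
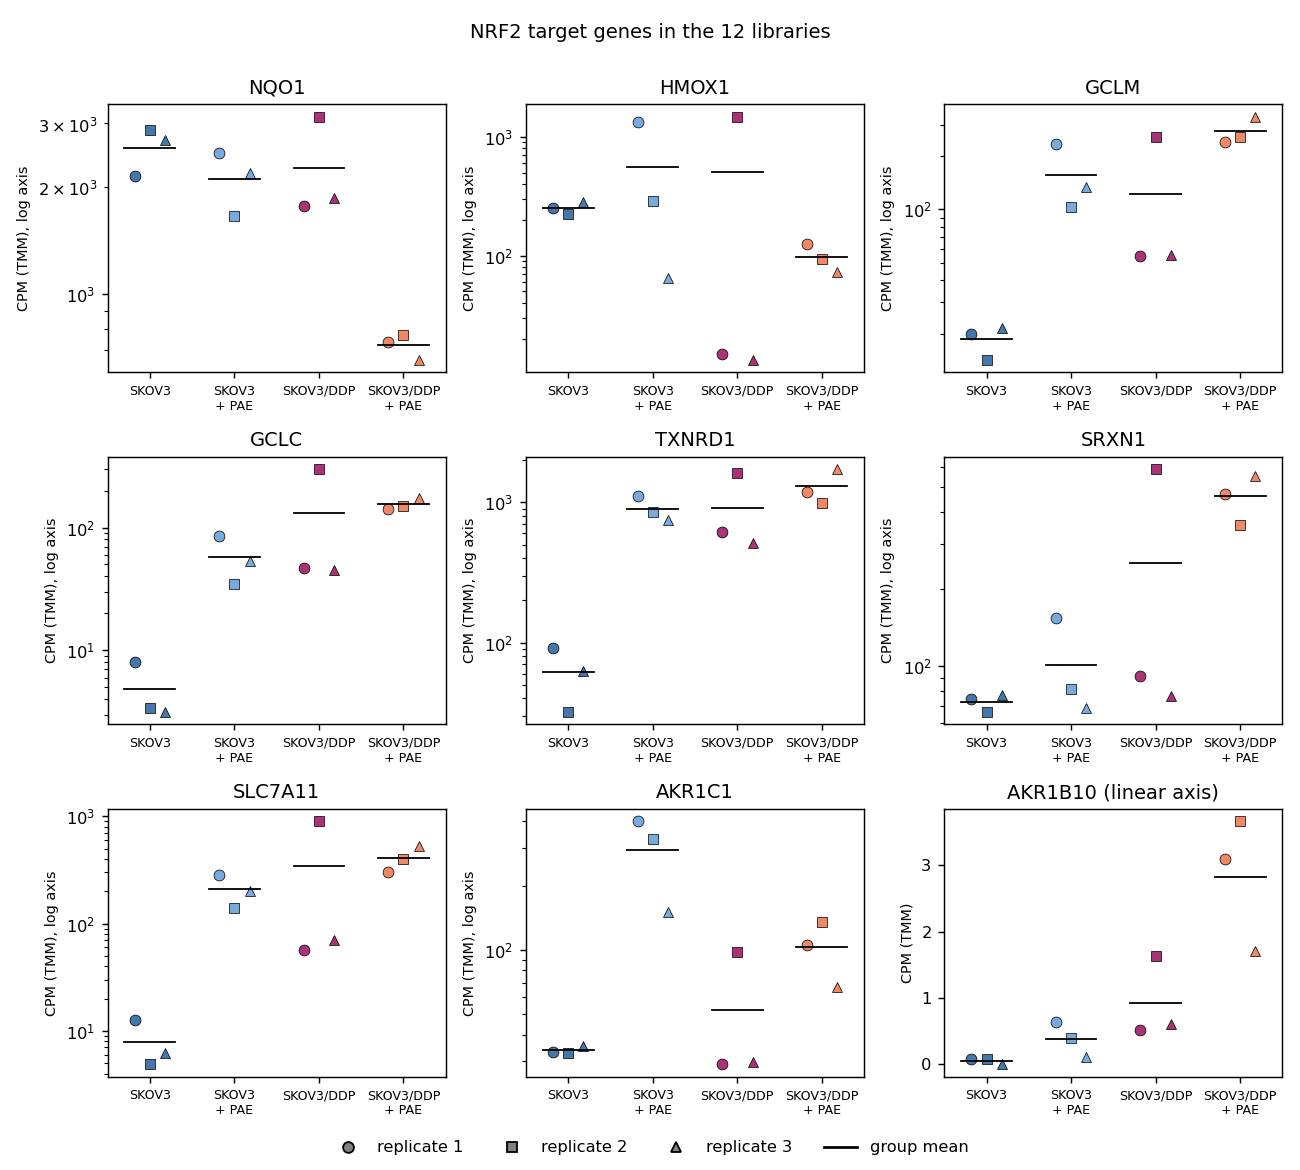
CPM of the 9 members in the 12 libraries, on log axes except for AKR1B10, with 1 panel per gene and its 4 groups along the horizontal axis. Points are libraries, with the replicate number as their shape, and bars are group means: in untreated SKOV3/DDP the square of replicate 2 lies above the other two in every panel, at 1484 CPM for HMOX1.

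In SKOV3/DDP, NQO1 alone of the 9 members passed the test with PAE when all libraries were used, and it fell. Over all genes tested, 14.7% were called lower and 11.8% higher (26.4% in either direction). NQO1 was at 1760, 3136 and 1856 CPM untreated and at 737, 769 and 656 CPM with PAE, with no overlap (log2 fold change −1.64 ± 0.25, adjusted p = 0.000508 by edgeR). The other 8 had 0 calls, with log2 fold changes from −2.38 ± 1.3 for HMOX1 to 1.61 ± 0.59 for AKR1B10 and adjusted p from 0.0582 to 0.841. The median was 0.51 over the members and 0.00 over all genes.

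Without untreated replicate 2, all 9 members were called: 8 rose and NQO1 fell. In that fit 11.5% of 17830 genes were called higher and 12.9% lower, so the member count went from 1 to 9 while the share of all genes called went from 26.4% to 24.4%. Untreated replicates 1 and 3 were then the whole untreated group (n = 2 against 3), and the choice to leave the library out was made on values of the members themselves, which limits what the count can show. With the GC and length trend removed as well, a setting added after the data were seen, the calls were again 8 higher and 1 lower, against 15.8% and 15.9% of all genes.

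HMOX1 turned direction between these fits. It was at 15.0 and 13.3 CPM in untreated replicates 1 and 3 and at 125, 93.0 and 73.1 CPM with PAE, and its log2 fold change was 2.78 ± 0.82 (adjusted p = 0.0235 by edgeR) without the library against −2.38 ± 1.3 (adjusted p = 0.193) with it. SLC7A11 was at 304, 404 and 530 CPM with PAE, against 57.0 and 70.9 CPM (2.69 ± 0.41, adjusted p = 0.000458 by edgeR). SRXN1 was at 471, 356 and 554 CPM with PAE against 91.7 and 76.3 CPM (2.45 ± 0.34, adjusted p = 0.000239 by edgeR). For each of them replicates 1 and 3 lay close together and below every treated library.

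The glutathione ligase subunits differed in the same manner. GCLM was at 240, 256 and 333 CPM with PAE against 54.6 and 55.2 CPM in untreated replicates 1 and 3 (2.33 ± 0.34, adjusted p = 0.000338 by edgeR). GCLC was at 141, 151 and 174 CPM against 46.7 and 45.3 CPM (1.75 ± 0.40, adjusted p = 0.00618 by edgeR). TXNRD1 had the smallest rise, from 619 and 515 CPM to 1188, 995 and 1732 CPM (1.20 ± 0.37, adjusted p = 0.0285 by edgeR). AKR1C1 went from 29.0 and 29.9 CPM to 106, 136 and 67.1 CPM (1.80 ± 0.37, adjusted p = 0.00349 by edgeR). AKR1B10 stayed low, at 3.09, 3.67 and 1.71 CPM with PAE, which was 172 counts over the group, against 45 counts untreated over all 3 libraries, of which replicates 1 and 3 held 19 (2.30 ± 0.67, adjusted p = 0.0217 by edgeR without replicate 2). The fall of NQO1 was −1.33 ± 0.22 (adjusted p = 0.000849 by edgeR) without the library, and it passed the test under every alternative that was run.

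**Figure D4:**
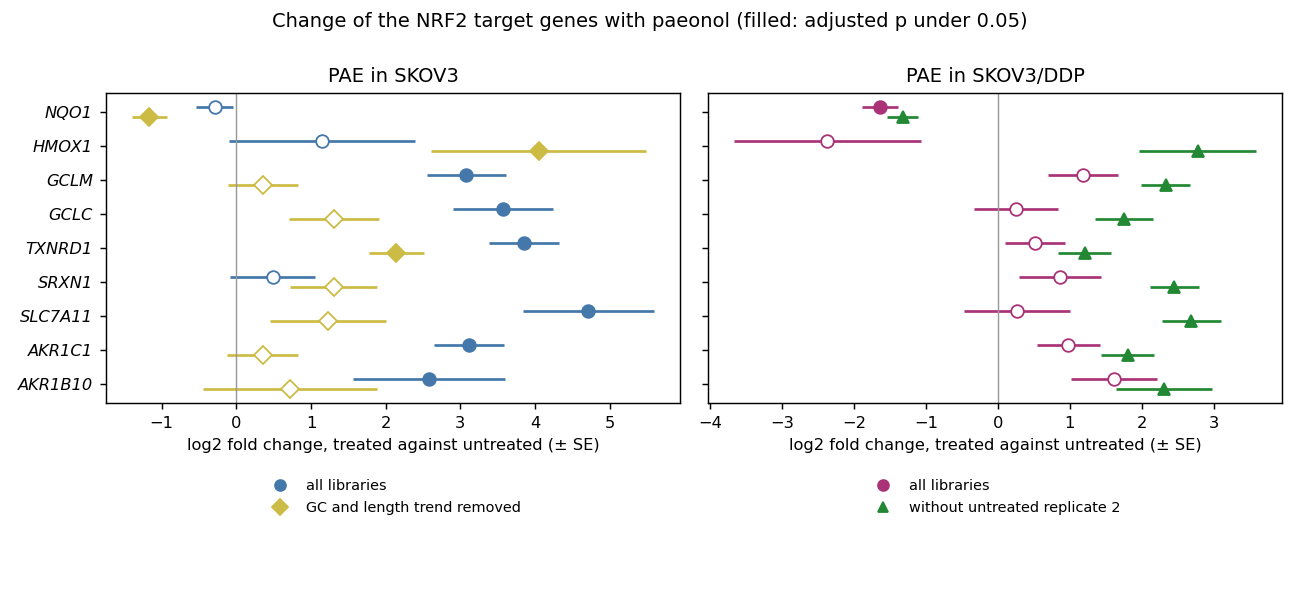
Log2 fold change with PAE (treated against untreated, bars show ± SE) of the 9 members in SKOV3 and in SKOV3/DDP, with filled marks at an adjusted p under 0.05. On the left, circles use all libraries and diamonds have the GC and length trend removed, and on the right, circles use all libraries and triangles leave out untreated replicate 2, where HMOX1 goes from −2.38 to 2.78.

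In both lines, how many members were called with PAE and how many had a positive change depended on the libraries used. Values here and the likeness given below use all libraries, TMM scaling and the trend left in, unless stated. Of the 9 log2 fold changes, 8 were positive in SKOV3 and 7 in SKOV3/DDP. In SKOV3, 8 were also positive with the trend removed, and 7 without treated replicate 1. By library size alone 9 were positive in SKOV3, where the median over all genes was 1.36. In SKOV3/DDP, 8 were positive without untreated replicate 2, and 5 without untreated replicate 1 or 3. The share of all genes with a positive change is not given here. Their median was 0.48 in SKOV3 (2.98 below 45% GC, where 5 members lie) and 0.00 in SKOV3/DDP. Among the members, the most alike over the 12 libraries were GCLC and SLC7A11, whose centred log2 CPM differed by a root mean square of 0.57, and TXNRD1 was nearest to GCLC, at 0.58. NQO1 was far from every other member, at 1.59 from the nearest, AKR1C1, and HMOX1 at 1.78. Genes outside the members were searched for likeness to NQO1 alone. The most like it among 9940 candidates were SERPINB6, an inhibitor of intracellular serine proteases, at 0.29, AIG1 at 0.31 and ABCC3, an exporter of conjugated anions, at 0.31. The smallest of 9940 distances is expected to lie below the smallest of 8, so these values are not comparable with those to the other members.

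The effect of PAE differed between the lines for 6 of the 9 members, by the interaction term of the fit (62.9% of all genes were called in either direction, 37.4% as lower and 25.5% as higher in SKOV3/DDP). With all libraries and the trend left in, all 6 were lower in SKOV3/DDP: SLC7A11 with a difference of −4.45 ± 1.11 (log2, adjusted p = 0.00264 by edgeR), TXNRD1 of −3.35 ± 0.61, GCLC of −3.32 ± 0.87, AKR1C1 of −2.14 ± 0.62, GCLM of −1.90 ± 0.69 and NQO1 of −1.36 ± 0.35. These differences take in both sets of untreated libraries that stand apart. Without untreated SKOV3/DDP replicate 2, SLC7A11 was at −2.03, TXNRD1 at −2.66, GCLC at −1.82, AKR1C1 at −1.32 and NQO1 at −1.05, each still called, GCLM was at −0.75 (adjusted p = 0.132), and SRXN1 was called with a higher effect in SKOV3/DDP, at 1.96 ± 0.42 (adjusted p = 0.00088 by edgeR), in a fit with 24.6% of genes called higher and 34.7% lower. With the trend removed, where 40.7% of genes were called in either direction, 2 members were called, TXNRD1 at −1.70 ± 0.51 (adjusted p = 0.0162 by edgeR) and HMOX1 at −6.14 ± 1.95 (adjusted p = 0.0221 by edgeR). Without untreated SKOV3/DDP replicate 2 the HMOX1 difference was 1.63 (adjusted p = 0.173 by edgeR) with the trend left in and −1.03 (adjusted p = 0.458 by edgeR) with the trend removed, so that it was called in neither. With both changes made, the calls of the members went mostly the other way, beside 18.4% of all genes called higher and 20.8% lower. GCLM, at 1.80 (adjusted p = 0.000945 by edgeR), SLC7A11, at 1.23 (adjusted p = 0.0115 by edgeR), and SRXN1, at 1.21 (adjusted p = 0.0251 by edgeR), then had a higher effect in SKOV3/DDP, and TXNRD1, at −1.06 (adjusted p = 0.0288 by edgeR), a lower one. The GCLM call of the first fit was also lost without untreated SKOV3 replicate 2, SKOV3 with PAE replicate 1 or SKOV3/DDP with PAE replicate 1 or 2, with differences from −1.82 to −1.47. TXNRD1 thus kept a lower effect past the test in all 4 fits, and the direction for SLC7A11 and GCLM depended on the fit.

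Between the untreated lines, 6 members were higher in SKOV3/DDP than in SKOV3: SLC7A11, GCLC, TXNRD1, AKR1B10, GCLM and SRXN1. Over all genes, 45.8% were called higher and 36% lower (81.8% in either direction). The log2 fold changes were 5.43 ± 0.91 for SLC7A11, 4.75 ± 0.70 for GCLC, 3.89 ± 0.47 for TXNRD1, 3.83 ± 0.94 for AKR1B10, 2.72 ± 0.52 for GCLM and 1.81 ± 0.59 for SRXN1, with adjusted p from 1.76e-06 to 0.0105 by edgeR. Without SKOV3/DDP replicate 2, SLC7A11 was at 3.02, GCLC at 3.25, TXNRD1 at 3.20, AKR1B10 at 3.15 and GCLM at 1.57, each still past the test, SRXN1 was at 0.23 (adjusted p = 0.503) in a fit with 43.4% of genes called higher and 35% lower, and HMOX1 went from 1.00 (adjusted p = 0.466) to −4.15 (adjusted p = 0.000515 by edgeR), as its levels of 15.0 and 13.3 CPM lie under the 223 to 285 CPM of SKOV3. With the trend removed, where 35.1% of genes were called higher and 33.1% lower, 5 members were higher (GCLC at 2.61, SLC7A11 at 2.13, TXNRD1 at 2.23, SRXN1 at 2.69 and HMOX1 at 3.68), and NQO1, at −0.92, and AKR1C1, at −2.11, were lower, each past the test. With both changes made, SLC7A11 was at −0.29 (adjusted p = 0.351) and GCLM at −1.04 (adjusted p = 0.00304), so the direction of these depended on both.

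Between the lines with PAE, where no untreated library enters, 54.5% of genes were called in either direction, 27.5% higher and 27.1% lower. SRXN1 was higher in SKOV3/DDP, at 2.19 ± 0.59 (adjusted p = 0.00594 by edgeR), as was AKR1B10, at 2.87 ± 0.64 (adjusted p = 0.00155). NQO1 was lower, at −1.55 ± 0.25 (adjusted p = 0.000115 by edgeR), as was AKR1C1, at −1.52 ± 0.44 (adjusted p = 0.0094). The other 5 did not pass, from −2.53 ± 1.31 for HMOX1 to 1.43 ± 0.60 for GCLC (adjusted p = 0.0549). Without untreated SKOV3/DDP replicate 2, which enters this comparison only through the scaling, the filter and the estimate of the spread shared by the fit, 8 members were called, 5 higher and 3 lower, all but TXNRD1, beside 27.5% and 27.1% of all genes. The summed copies of AKR1C1 differed more, by −2.57 ± 0.41 (adjusted p = 9.17e-05 by edgeR). Per length, TXNRD1 had the highest mean level of the members in SKOV3/DDP with PAE, at 306 CPM per kilobase against 286 for NQO1. These means are close, and the order of TXNRD1 and NQO1 differed between the libraries. Those of TXNRD1 spread from 995 to 1732 CPM and those of NQO1 from 656 to 769 CPM. In SKOV3 with PAE NQO1 was at 835 CPM per kilobase and TXNRD1 at 211.

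Ordered by mean CPM over all 12 libraries from the lowest to the highest group, GCLC, TXNRD1, SRXN1, SLC7A11 and AKR1B10 ran from untreated SKOV3 through SKOV3 with PAE and untreated SKOV3/DDP to SKOV3/DDP with PAE. Neighbours in this order overlapped between SKOV3 with PAE and untreated SKOV3/DDP for all 5, and for all but AKR1B10 also between untreated and treated SKOV3/DDP. For SRXN1 every pair of neighbours overlapped. GCLM had its middle groups the other way round, and these overlapped. NQO1 ran from SKOV3/DDP with PAE, at 721 ± 58.2 CPM (SD, n = 3), through SKOV3 with PAE and untreated SKOV3/DDP to untreated SKOV3, at 2569 ± 381 CPM, and only the lowest group was clear of its neighbour. The order rests in part on untreated SKOV3/DDP replicate 2. Without it untreated SKOV3/DDP had a mean of 63.9 CPM for SLC7A11, 46.0 for GCLC, 567 for TXNRD1 and 84.0 for SRXN1, below the means of SKOV3 with PAE at 208, 57.8, 898 and 101 CPM, so that the middle groups changed places for these 4 genes and for NQO1. GCLM and AKR1B10 kept their order. HMOX1 and AKR1C1 were then lowest in untreated SKOV3/DDP, at 14.1 and 29.4 CPM. AKR1C1 was highest in SKOV3 with PAE, at 294 ± 129 CPM. HMOX1 had the widest spread, with a highest to lowest ratio of 112 within untreated SKOV3/DDP and of 20.5 within SKOV3 with PAE, against 1.28 within untreated SKOV3.

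The regulators of NRF2 moved in both directions in SKOV3, with 5 of 12 higher and 6 lower with PAE, beside 42.6% and 32.7% of all genes. NFE2L2 rose from 48.2, 24.4 and 32.4 CPM to 451, 262 and 465 CPM (log2 fold change 3.49 ± 0.43, adjusted p = 2.76e-06 by edgeR), and KEAP1 fell from 1284, 1344 and 1209 CPM to 168, 248 and 224 CPM (−2.58 ± 0.21, adjusted p = 5.12e-08 by edgeR). BACH1, at 3.52, the ligase scaffold CUL3, at 3.35, the kinase GSK3B, at 2.91, and the adaptor BTRC, at 2.21, also rose. MAFK, at −3.48, MAFF, at −2.48, SQSTM1, at −1.95, MAFG, at −1.18, and NFE2L1, a relative of NRF2, at −1.11, fell, and RBX1 was at −0.37 (adjusted p = 0.24 by edgeR). With the trend removed 3 were called higher and 2 lower, beside 26.1% and 21.8% of all genes. NFE2L2, at 1.24 (adjusted p = 0.00803 by edgeR), BACH1, at 0.74, and GSK3B, at 0.46, were then higher and MAFK and RBX1 lower, while KEAP1 was at −0.25 (adjusted p = 0.27 by edgeR), CUL3 at −0.11, BTRC at −0.034 and MAFF at −0.29. In SKOV3/DDP 1 of the 12 was called, beside 26.4% of all genes, and this was BTRC, which rose by 1.11 ± 0.30 (adjusted p = 0.0137 by edgeR). NFE2L2 was at 113, 320 and 110 CPM untreated and at 200, 191 and 307 CPM with PAE (0.36 ± 0.39, adjusted p = 0.531 by edgeR). Without untreated replicate 2, 4 regulators were called higher and 0 lower, beside 11.5% and 12.9% of all genes: NFE2L2, at 1.07 (adjusted p = 0.0289 by edgeR), MAFG, at 1.35, MAFF, at 1.13, and BTRC, at 0.99.

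In the 5 further lists the counts with PAE were split. They are to be read beside the shares of all genes called, 42.6% higher and 32.7% lower in SKOV3 and 11.8% higher and 14.7% lower in SKOV3/DDP. The glutathione genes, of which 10 of 11 were tested, had 2 higher and 6 lower in SKOV3, and 1 higher and 4 lower in SKOV3/DDP. GPX8, a peroxidase of the endoplasmic reticulum, rose by 3.96 ± 0.29 in SKOV3 (adjusted p = 2.07e-08 by edgeR). SLC3A2 rose in SKOV3/DDP by 1.91 ± 0.50 (adjusted p = 0.0123 by edgeR), from 175, 1018 and 213 CPM to 2013, 1580 and 1689 CPM, and by 3.18 (adjusted p = 3.31e-05 by edgeR) without untreated replicate 2. In SKOV3, where SLC7A11 was higher, SLC3A2 fell, by −1.55 ± 0.50 (adjusted p = 0.0102 by edgeR). The 11 thioredoxin genes had 3 higher and 6 lower in SKOV3, and 0 higher and 3 lower in SKOV3/DDP. PRDX5, a peroxiredoxin, was at −3.55 ± 0.32 in SKOV3 (adjusted p = 9.72e-08 by edgeR), and TXNRD3 at −1.0 ± 0.27 in SKOV3/DDP (adjusted p = 0.0143 by edgeR).

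The 6 NADPH genes had 2 higher and 4 lower in SKOV3. ME1, the cytosolic malic enzyme, was at 2.90 ± 0.34 (adjusted p = 1.76e-06 by edgeR). In SKOV3/DDP 1 was higher, PGD of the pentose phosphate pathway at 1.41 ± 0.21 (adjusted p = 0.000457 by edgeR), and 2 were lower. The 8 heme and iron genes had 3 higher and 5 lower in SKOV3, and 0 higher and 1 lower in SKOV3/DDP, BLVRA, a biliverdin reductase, at −1.51 ± 0.21 (adjusted p = 0.000264 by edgeR). HMOX2, the constitutive heme oxygenase, was at −3.73 ± 1.06 in SKOV3 (adjusted p = 0.0051 by edgeR), where its untreated libraries ranged from 7.07 to 49.8 CPM. Of the 18 other targets, 16 were tested, with 6 higher and 5 lower in SKOV3. In SKOV3/DDP 2 were higher and 4 lower, and the aldehyde dehydrogenase ALDH3A1 was at −1.95 ± 0.32 (adjusted p = 0.00076 by edgeR). With the GC and length trend removed, the calls in SKOV3 were 2 higher and 1 lower for glutathione, 3 and 4 for thioredoxin, 1 and 1 for NADPH, 2 and 0 for heme and iron, and 7 and 1 for the other targets, beside 26.1% and 21.8% of all genes. GPX8 was then at 1.10 (adjusted p = 0.00101 by edgeR), and the calls of SLC3A2, PRDX5, ME1 and HMOX2 were lost, at −0.35, −0.087, 0.015 and −2.66. Without untreated replicate 2, those in SKOV3/DDP were 2 higher and 2 lower, 0 and 4, 3 and 2, 2 and 2, and 5 and 4, in the same order, beside 11.5% and 12.9% of all genes. TXNRD3 was then at −1.25, PGD at 1.69, BLVRA at −1.55 and ALDH3A1 at −1.76, each past the test.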

How the data were processed

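The authors deposited raw whole-number counts per gene, without normalization, in 1 file per library, on GRCh38 coordinates. The submitters' processing notes name HISAT2 2.0.5, StringTie 1.3.3b, DESeq2 and edgeR, with no roles. The counting program and strand are not given in the sources used here, so overlapping genes and antisense genes cannot be told apart. RNA was captured with poly-T beads. Loci without a gene name (0.126% to 0.678% of counts) were left out.

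All 12 libraries entered 1 fit of 4 groups in edgeR 4.0.16 (R 4.3.3), with TMM factors, filterByExpr (17133 genes) and the 2-sided quasi-likelihood test, adjusted by Benjamini-Hochberg over all genes at 0.05. The SE was taken as the absolute log2 fold change over the square root of F. Counts enter the test, CPM only describe. Exact permutation of 3 against 3 libraries cannot go below 0.1, so none is printed. Intervals of counts are exact, at 95%.

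The members and lists were chosen with earlier results of these data known. Named are the members, the regulators, and per other list and line the gene of largest change past the test with at least 10 CPM in the higher group, plus the genes nearest to NQO1. Others are named as picked after their values were seen. Alternatives were DESeq2 1.42.0, scaling by library size, 2 other filters, the replicate block, the 6 libraries of a comparison alone, summed copies, each library left out, and splines of 5 degrees of freedom on GC content and length (GENCODE transcripts, 91.5% of tested genes). Scripts were tested on simulated data. Same-numbered libraries did not deviate together (correlations −0.310 to 0.180), so no pairing was used. No library was a duplicate.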

Additional observations from a re-analysis of the deposited data

Results flagged for a closer look

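The effect of PAE differed between SKOV3/DDP and SKOV3 by the interaction term for 26 genes. These are among the members, the regulators and the genes named by rule from the other lists. A difference is the log2 fold change in SKOV3/DDP minus that in SKOV3 (edgeR, adjusted p under 0.05). Of the members, NQO1 (−1.36), GCLM (−1.90), GCLC (−3.32), TXNRD1 (−3.35), SLC7A11 (−4.45) and AKR1C1 (−2.14) had a lower effect in SKOV3/DDP. Of the regulators, NFE2L2 (−3.13), CUL3 (−2.93), BTRC (−1.10), GSK3B (−2.45) and BACH1 (−3.25) had a lower effect there, and NFE2L1 (0.94), KEAP1 (2.92), SQSTM1 (2.58), MAFF (2.64), MAFG (2.07) and MAFK (3.88) a higher one. Of the other pathway genes, AKR1C2 (−3.69), ALDH3A1 (−1.17), BLVRA (−2.08), GPX8 (−4.60), ME1 (−2.34) and TXNRD3 (−1.84) had a lower effect, and PGD (3.07), PRDX5 (3.64) and SLC3A2 (3.46) a higher one. Over all genes 62.9% were called in this comparison, beside 6 of the 9 members and 11 of the 12 regulators. The other pathway genes were named because each had the largest called change of its list with PAE in 1 line of these data. That choice favours a called difference, so their number is not to be read against this share. Every one of these differences contains the untreated SKOV3 libraries, with their GC trend, and untreated SKOV3/DDP replicate 2, and the part of either was tested only by the alternatives given here. Without that replicate 24 of the 26 were called in the same direction. With the trend removed 8 were called in the same direction (TXNRD1, KEAP1, MAFK, SLC3A2, PGD, BLVRA, GPX8 and ALDH3A1), 17 were not called, and BTRC was called in the opposite direction. With both changes made 11 were called in the same direction, 11 were not called, and 4 were called in the opposite direction (SLC7A11, GCLM, ME1 and BTRC).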

How the results depend on the processing

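Of the 9 members, 6 were called with PAE in SKOV3, 1 in SKOV3/DDP, 6 between the untreated lines, 4 between the lines with PAE and 6 for the difference of the PAE effect. Over all 17133 genes tested, the calls in the same order were 12895, 4526, 14010, 9346 and 10778. With the GC and length trend removed, 3 members were called in SKOV3 and 2 for the difference. Over all 15682 genes then tested, 7510 and 6383 were called. AKR1C1 then turned to −2.11 between the untreated lines, and in the difference GCLM turned to 0.69, SRXN1 to −0.34, AKR1C1 to 0.55 and AKR1B10 to 0.83. With this trend and SKOV3/DDP replicate 2 both removed (added after the data were seen), 6 members were called in SKOV3 (5 higher) and 4 for the difference (3 higher in SKOV3/DDP). In SKOV3/DDP 9 were called, and 8 between the lines with PAE. Over all 16142 genes then tested, the calls in the same order were 7941, 6331, 5115 and 9740. HMOX1 turned to 3.03 in SKOV3/DDP, HMOX1 to −1.41, GCLM to −1.04, SLC7A11 to −0.29 and AKR1C1 to −2.89 between the untreated lines, and GCLM to 1.80, GCLC to 0.31, SLC7A11 to 1.23, AKR1C1 to 1.33 and AKR1B10 to 1.47 in the difference.

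The replicate number pairs nothing in the labels. The replicate block gave 3 members in SKOV3/DDP, beside 3997 of 17133 genes, and turned HMOX1 to −0.23 between the untreated lines. The replicate block with the trend removed gave 2 members in SKOV3, 1 for the difference and 3 in SKOV3/DDP. Of 15682 genes, 7038, 5945 and 4554 were called, in the same order. That fit turned GCLM to −0.11 and AKR1C1 to −2.30 between the untreated lines. In the difference it turned GCLM to 0.85, SRXN1 to −0.033, AKR1C1 to 0.73 and AKR1B10 to 0.88.

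In SKOV3, library size scaling called 8 members, all higher, beside 9058 of 17133 genes called higher. It called 7 between the untreated lines, beside 13986 genes, and 7 for the difference, beside 10896. DESeq2 called 5 members higher and 1 lower in SKOV3, beside 6793 and 6100 genes. In SKOV3/DDP, 4 members were called by library size scaling, beside 4802 of 17133 genes, and 6 with no filter, beside 4845 of 31557. DESeq2 called 3, beside 5147 of 17133 genes, and the 6 libraries alone 2, beside 5072 of 14960. Between the lines with PAE 8 were called with no filter, beside 10252 of 31557 genes. In the 6 libraries alone 8 were called there, beside 8809 of 15965 genes. Library size scaling turned NQO1 to 0.59 in SKOV3 and 0.47 between the untreated lines, and SRXN1 to −0.25 in the difference. Requiring 10 counts in every library left fewer genes to test, with 8998 called between the untreated lines and 5486 with PAE. Summed copies turned AKR1C1 to −0.044 between the untreated lines. The causes were not tested.

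With each library left out in turn, the members called ranged from 5 to 6 in SKOV3, 1 to 9 in SKOV3/DDP, 4 to 8 between the lines with PAE and 5 to 7 for the difference. Of 17653 to 17905 genes tested, those called in SKOV3/DDP ranged from 2815 (without untreated SKOV3/DDP replicate 1) to 4998. They ranged from 12372 to 13173 in SKOV3, 8401 to 9944 between the lines with PAE and 10212 to 10727 for the difference. HMOX1 ranged from −0.51 to 1.68 in SKOV3, −2.91 to 2.78 in SKOV3/DDP, −4.15 to 1.53 between the untreated lines and −4.06 to 1.63 in the difference. GCLC ranged from −0.13 to 1.75 and SLC7A11 from −0.20 to 2.69 in SKOV3/DDP, AKR1C1 from −0.20 to 0.87 between the untreated lines, and SRXN1 from −0.024 to 1.96 in the difference. For these members the upper ends in SKOV3/DDP are those without untreated replicate 2. Of the members AKR1B10 had the fewest counts, 240 in all. In untreated SKOV3 the counts of GCLC, 37 to 91 per library, and of SLC7A11, 57 to 143, were also small.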
